A study of Mus musculus with 24 samples.

Results

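The genes described here are 7 whose transcripts mark injured and maladaptive kidney tubule cells were followed through ureteral obstruction and its relief: Havcr1, Lcn2, Spp1, Clu, Vcam1, Cd44 and Cp. They were taken by symbol, and all 7 had a row among the 14785 genes of the deposited mouse expression table. The study sequenced bulk RNA of cortical kidney from male C57/BL6 mice, labelled as 8 weeks old and given as 8 to 9 weeks at the start. There were 10 animals in each of 6 groups, of which 4 per group were sequenced, so 24 libraries were analysed. Control animals had sham surgery. In the remaining animals 1 ureter was ligated, and they were killed after 2 days (called UUO2, for unilateral ureteral obstruction) or after 7 days (UUO7). In 3 reversal groups the ureter was ligated for 7 days, then reimplanted, and the kidney was taken 1 week (R1W), 2 weeks (R2W) or 4 weeks (R4W) later. No group carries a genetic change, and the strain and sex are shared by all 6. Levels are in FPKM, the fragments of a gene scaled by its transcript length and by the library's total.

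After injury, tubule epithelial cells lose part of their transport programme and switch on genes for clearance of debris, iron binding, adhesion and matrix contact. Cells that do not return to the differentiated state keep a share of these genes on and are described as maladaptive or failed-repair cells. Havcr1 (KIM-1) is a phosphatidylserine receptor with which proximal tubule cells take up dead neighbours. Lcn2 (NGAL) binds iron-carrying siderophores, Spp1 (osteopontin) is a secreted ligand of integrins and of the hyaluronan receptor Cd44, and Clu (clusterin) is an extracellular chaperone. Vcam1 is an adhesion molecule for leukocyte integrins, and Cp (ceruloplasmin) is a copper-dependent ferroxidase. Endothelium also makes Vcam1, leukocytes carry Cd44, neutrophils store the Lcn2 protein and macrophages can make Spp1. In bulk tissue, a change in the number of cells of a type and a change in RNA per cell cannot be told apart.

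The 7 genes lie on 5 chromosomes of the mouse genome (GRCm38, the build named mm10 in the submitters' processing notes). Havcr1 is at chr11:46735080-46779578 on the + strand, Spp1 at chr5:104435118-104441050 (+), Clu at chr14:65968483-65981547 (+) and Cp at chr3:19957054-20009145 (+). On the - strand are Lcn2 at chr2:32384633-32388252, Cd44 at chr2:102811141-102901665 and Vcam1 at chr3:116109949-116129688. Cp overlaps Hps3 on the opposite strand, and Spp1 overlaps the gene model Gm42793 on its own strand. Both neighbours have a row in the table. Whether the counting used strand is not given in the sources used here, so reads in the overlaps of Cp could belong to either gene.

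Promoter sequences were available for 5 of the 7 genes (RefSeq, GRCm38.p6). Windows are the 250 bases before an annotated start site, 5′ to 3′ on the gene's strand. They are shown because the genes were higher together in every injured group. For each gene the first window with no annotated exon base is given, which left 4 genes. Capitals mark matches on either strand to 6 motifs. The AP-1 motif is spelled TGANTCA. The C/EBP motif is spelled TTNNGNAA. The STAT motif is spelled TTCNNNGAA. For RUNX it is ACCACA. The TATA motif is TATAAA, and the kappaB motif is given by its name.
Havcr1, the second annotated start site, chr11:46750261-46750510 (+): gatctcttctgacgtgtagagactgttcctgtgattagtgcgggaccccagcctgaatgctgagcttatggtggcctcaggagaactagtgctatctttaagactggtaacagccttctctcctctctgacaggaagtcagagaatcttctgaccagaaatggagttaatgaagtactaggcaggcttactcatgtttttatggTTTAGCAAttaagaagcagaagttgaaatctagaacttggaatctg
Spp1, chr5:104434861-104435110 (+): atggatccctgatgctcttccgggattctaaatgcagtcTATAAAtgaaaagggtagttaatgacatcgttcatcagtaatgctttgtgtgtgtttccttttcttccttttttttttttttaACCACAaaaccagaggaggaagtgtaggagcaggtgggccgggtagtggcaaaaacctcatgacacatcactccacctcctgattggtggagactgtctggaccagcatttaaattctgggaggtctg
Cd44, chr2:102901666-102901915 (-): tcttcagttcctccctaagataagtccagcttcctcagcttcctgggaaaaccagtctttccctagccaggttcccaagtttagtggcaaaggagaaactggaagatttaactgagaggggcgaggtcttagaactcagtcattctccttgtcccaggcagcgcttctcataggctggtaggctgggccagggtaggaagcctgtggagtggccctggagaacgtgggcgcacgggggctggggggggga
Cp, chr3:19956804-19957053 (+): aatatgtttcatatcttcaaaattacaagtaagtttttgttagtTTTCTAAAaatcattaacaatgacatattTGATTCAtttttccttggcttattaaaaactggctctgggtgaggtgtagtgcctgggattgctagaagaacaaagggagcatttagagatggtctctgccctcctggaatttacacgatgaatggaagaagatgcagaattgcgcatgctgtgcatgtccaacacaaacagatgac
The Havcr1 window lies within the annotated gene and holds 1 C/EBP match. The Spp1 window holds 1 TATA and 1 RUNX match, and the Cp window 1 C/EBP and 1 AP-1 match. In the Cd44 window none of the 6 motifs was matched, nor in the other exon-free window of Havcr1. Among 32851 RefSeq mouse promoter windows of the same length, a C/EBP match occurred in 36.8%, RUNX in 14.0%, TATA in 12.4%, STAT in 7.02%, AP-1 in 6.75% and kappaB in 3.9%. No pair of capital runs overlaps in these 4 windows. These matches describe letters in the windows and were not linked to the expression values.

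Summed FPKM ran from 717415 to 830179 per library. The lowest correlation between libraries of a group, across genes, was 0.962, the median was 0.978, and the median between groups was 0.934. In 14 of the 24 libraries low values stepped in whole fragments, which implied 24193000 to 36381000 fragments. A second setting of this search found steps in 7 libraries, and the setting with more was kept after both were seen. Neither setting found steps in any of the 4 UUO2 libraries, whose sample numbers, and no others, carry a B in the header of the table. The design text names 20 libraries pooled over 3 lanes while the series holds 24, so UUO2 differences and any difference in library handling cannot be told apart. Sham animal 2 stood apart: its summed adipose markers were 291.3 FPKM against 40.38 to 48.51 in the other sham animals, and its summed urothelial markers 34.24 against 1.45 to 2.31. Without it, none of the 35 member comparisons with sham changed its call, and the log2 fold changes were 0.04 to 0.52 larger. R4W animal 1 had 1644 FPKM of adipose markers against 62.46 to 401.6 in its group. R4W animal 2 carries a treatment label of 2 weeks against its title of 4 weeks, and was grouped by title.

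**Figure D1:**
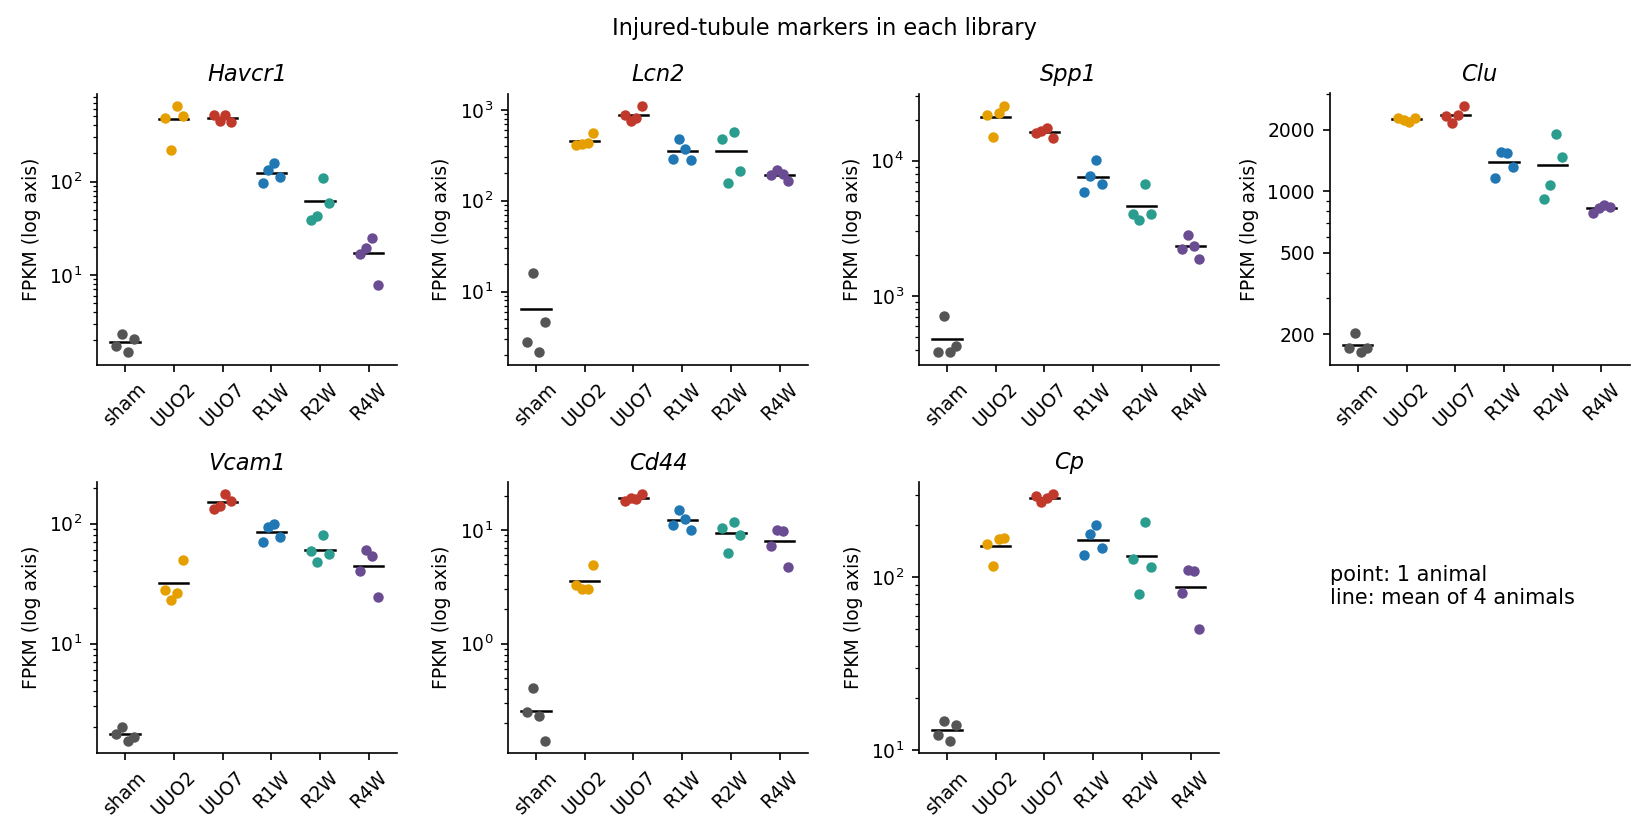
FPKM of each of the 7 genes in each animal on a log axis, by group; points are animals and lines are group means. Every injured or reversed animal lies above every sham animal for each gene, and sham animal 2 is the highest sham point in all 7 panels.

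Havcr1, the receptor of engulfing tubule cells, was close to silent in sham kidneys. The 4 sham animals had 1.75, 2.35, 1.49 and 2.06 FPKM. After 2 days of ligation the level was 472.49, 218.21, 645.32 and 507.7 FPKM, and after 7 days 508.49, 443.19, 510.07 and 429.05 FPKM. The 7-day range lay within the 2-day range, and the 2-day animals were far more spread. One week after reimplantation the animals had 95.67, 131.65, 159.09 and 112.3 FPKM, after 2 weeks 38.91, 42.32, 108.73 and 59.03, and after 4 weeks 16.81, 19.56, 24.69 and 7.79. Each reversal group lay below all ligated animals and above all sham animals. R1W and R2W overlapped through R2W animal 3, while R4W lay below every R2W animal. Means rose 241-fold over sham at 2 days, from 1.91 ± 0.373 to 461 ± 178 FPKM (SD, n = 4), and 247-fold at 7 days. In the order of means (UUO7, UUO2, R1W, R2W, R4W, sham), UUO7 and UUO2 did not differ beyond their spread. R1W and R2W, at 125 ± 27.3 and 62.3 ± 32.2 FPKM, were not called different (log2 difference 1.09 ± 0.33, adjusted p = 0.166).

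Spp1, the secreted integrin ligand, was already an abundant transcript in sham kidneys, at 385.17, 718.52, 388.92 and 428.13 FPKM. It reached 21639.24, 14966.31, 22580.95 and 25380.42 FPKM at 2 days of ligation, and 15894.33, 16447.91, 17535.23 and 14637.28 at 7 days. By group mean it ranked 202 of 14785 genes in sham, 2 in UUO2 and 1 in UUO7, and its median share of summed FPKM went from 0.0523% to 2.74% and 2.12%. The mean was thus 44.0-fold above sham at 2 days and 33.6-fold at 7 days, with the UUO2 and UUO7 ranges overlapping. After reversal R1W animals had 5822.05, 7647.5, 10156.15 and 6665.41 FPKM, R2W animals 4017.35, 3654.14, 6757.88 and 4036.48, and R4W animals 2228.69, 2828.96, 2362.38 and 1881.83. R1W and R2W overlapped only through R2W animal 3, and R4W lay below both. The rank at 4 weeks was still 23, against 202 in sham.

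Lcn2, the siderophore binder, had 2.78, 16.15, 2.15 and 4.64 FPKM in sham, with sham animal 2 well above the others. The level was 407.54, 418.38, 426.39 and 552.95 FPKM at 2 days and 888.09, 747.84, 806.79 and 1107.21 at 7 days, with no overlap between those groups. In R1W it was 287.44, 473.92, 370.54 and 279.2 FPKM, in R2W 477.24, 158.41, 575.87 and 214.93, and in R4W 192.91, 217.71, 194.58 and 165.28. The R2W animals split widely (SD 202 around a mean of 357 FPKM) and spanned the whole R1W range. R4W was narrow and lay within the R2W range. The only neighbours in the order of means (UUO7, UUO2, R2W, R1W, R4W, sham) that were called different were UUO7 and UUO2, and R4W and sham.

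Clu, the chaperone, varied little between the UUO2 animals (coefficient of variation 2.36%) and between the R4W animals (3.47%). Sham animals had 171.88, 202.5, 162.95 and 171.55 FPKM. UUO2 animals had 2289.85, 2238.55, 2179.87 and 2292.76 FPKM, and UUO7 animals 2342.0, 2157.86, 2350.26 and 2617.12. The 2-day values lay within the 7-day range (2250 ± 53.1 against 2367 ± 189 FPKM). R1W animals had 1165.43, 1553.74, 1529.41 and 1313.43 FPKM, R2W animals 912.88, 1075.92, 1906.19 and 1466.82, and R4W animals 786.47, 824.43, 855.03 and 833.78. R2W extended beyond R1W on both sides, and R4W lay below every animal of both. The order of means was UUO7, UUO2, R1W, R2W, R4W, sham, and UUO7 and UUO2, R1W and R2W, and R2W and R4W were not called different.

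Vcam1 is the leukocyte adhesion molecule. Its levels were 1.76, 2.03, 1.55 and 1.66 FPKM in sham, 28.25, 23.07, 26.46 and 49.37 in UUO2 and 133.34, 141.11, 175.87 and 154.91 in UUO7. Each of these groups lay wholly above the one before. At 1 week of reversal the animals had 70.48, 94.1, 98.71 and 77.35 FPKM, at 2 weeks 58.78, 47.53, 80.72 and 55.43, and at 4 weeks 40.24, 60.19, 54.02 and 24.53. R1W lay above every UUO2 animal, whereas R4W overlapped UUO2. Against UUO2 the log2 fold change was 1.44 in R1W (limma, Benjamini-Hochberg adjusted p = 1.85e-05), 0.95 in R2W (adjusted p = 0.00159) and 0.47 in R4W (adjusted p = 0.0905). The order of means was UUO7, R1W, R2W, R4W, UUO2, sham, and the 3 pairs of neighbours from R1W to UUO2 were not called different.

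Cd44, the hyaluronan and osteopontin receptor, was the lowest of the members in sham, at 0.25, 0.41, 0.23 and 0.14 FPKM. It was 3.28, 3.05, 3.01 and 4.92 FPKM at 2 days and 18.12, 18.99, 18.62 and 20.55 at 7 days. No 2-day animal reached any 7-day animal. R1W animals had 11.15, 14.97, 12.43 and 9.97 FPKM, R2W animals 10.4, 6.3, 11.75 and 9.1, and R4W animals 7.19, 10.03, 9.74 and 4.71. The 3 reversal groups overlapped one another. R4W stayed above UUO2 (log2 fold change 0.94, limma adjusted p = 0.000227), with its lowest animal below the highest UUO2 animal. Cd44 had the same order of means as Vcam1, and neither R1W and R2W nor R2W and R4W were called different. With sham values under 1 FPKM, the fold on the log2(FPKM + 1) scale understates the ratio of means, which was 74.1 at 7 days. A gene at this level in every library would be below the lowest mean held in the table, which is 1.0 FPKM.

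Cp, the ferroxidase, had 12.32, 14.74, 11.35 and 13.91 FPKM in sham. The level was 156.31, 117.24, 168.09 and 169.47 FPKM at 2 days and 297.23, 272.07, 288.37 and 302.87 at 7 days, without overlap. At 1 week of reversal it was 134.82, 178.91, 200.41 and 147.24 FPKM, at 2 weeks 127.85, 79.89, 209.69 and 114.45, and at 4 weeks 81.62, 110.62, 109.72 and 50.08. R1W and UUO2 shared a range (log2 difference 0.11, adjusted p = 0.699), and R2W animal 3 lay above every R1W and every UUO2 animal. The order of means was UUO7, R1W, UUO2, R2W, R4W, sham. Only UUO7 and R1W, and R4W and sham, were called different among its neighbours.

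The whole set was up after 2 days of ligation. All 7 genes were higher in UUO2 than in sham, against 32.3% of all genes called higher (limma on log2(FPKM + 1), adjusted p under 0.05). Of these, 6 had a sham mean above the lowest mean held in the table (1.0 FPKM). Cd44 (0.2575 FPKM in sham) has a row only through the ligated and reversed groups and had to be higher there, so its call against sham is no support, here or in the later comparisons with sham. The log2 fold change was 7.21 ± 0.33 (SE) for Havcr1 (adjusted p = 7.05e-13), 6.27 ± 0.4 for Lcn2 (adjusted p = 2.25e-10), 5.48 ± 0.22 for Spp1 (adjusted p = 8.25e-14) and 3.66 ± 0.15 for Clu (adjusted p = 1.19e-13). It was 3.52 ± 0.23 for Vcam1, 3.44 ± 0.24 for Cp and 1.84 ± 0.19 for Cd44, with adjusted p from 2.98e-10 to 1.29e-07. The order of the genes depends on the pseudocount: as ratios of means, Vcam1 was 18.2-fold, Cd44 13.8-fold, Clu 12.7-fold and Cp 11.7-fold above sham. All 4 UUO2 animals lay above all 4 sham animals for each gene, as for 28.3% of all genes. The median was 3.66 for the members and 0.09 for all genes. Summed proximal tubule markers (7 genes, none at 0) were 1398 to 2315 FPKM in UUO2 against 3369 to 3920 in sham, and summed macrophage markers (7 of 7 with a row) 85.1 to 194 against 49.2 to 82.8. Of the macrophage markers limma called 5 higher and 1 lower, Csf1r (8.375 against 18.34 FPKM, adjusted p = 3.05e-06). Also without overlap, neutrophil sums were 4.58 to 5.9 against 0.99 to 1.53 and fibroblast and pericyte sums 79.1 to 163 against 30.2 to 69.4. Distal nephron sums were 1014 to 2345 against 2533 to 3139. The sums of the other lists overlapped between the groups. The part of these cell types in the result was not tested.

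At 7 days all 7 genes, Cd44 with the limit given above, were again higher than in sham, against 60.1% of all genes, and without overlap, against 56.9%. Havcr1 was higher by 7.35 ± 0.33 on the log2 scale (adjusted p = 1.13e-12), Lcn2 by 7.24 ± 0.4 (adjusted p = 1.25e-11) and Vcam1 by 5.79 ± 0.23 (adjusted p = 4.86e-13). Spp1 was higher by 5.12 ± 0.22, Cp by 4.38 ± 0.24, Cd44 by 4 ± 0.19 and Clu by 3.73 ± 0.15. The median of all genes itself stood at 0.42 in this comparison. Rescaling the libraries (each divided by the median, over genes, of its ratio to the geometric mean of all libraries) moved that median to 0.01 and left all 7 genes called higher than sham. Summed macrophage markers were 949 to 1141 FPKM in UUO7, summed fibroblast and pericyte markers 415 to 491 against 30.2 to 69.4 in sham, and summed endothelial markers 128 to 145 against 48.6 to 87.2. Neutrophil markers, of which 3 of 7 had a row, summed to 10.9 to 17.3 FPKM against 0.99 to 1.53. T and B cell markers, of which 4 of 7 had a row, summed to 6.89 FPKM or more in each UUO7 animal (median 9.4) against 0.95 to 1.16. The part of these cell types in the levels of Lcn2, Spp1, Vcam1 and Cd44 was not tested.

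**Figure D2:**
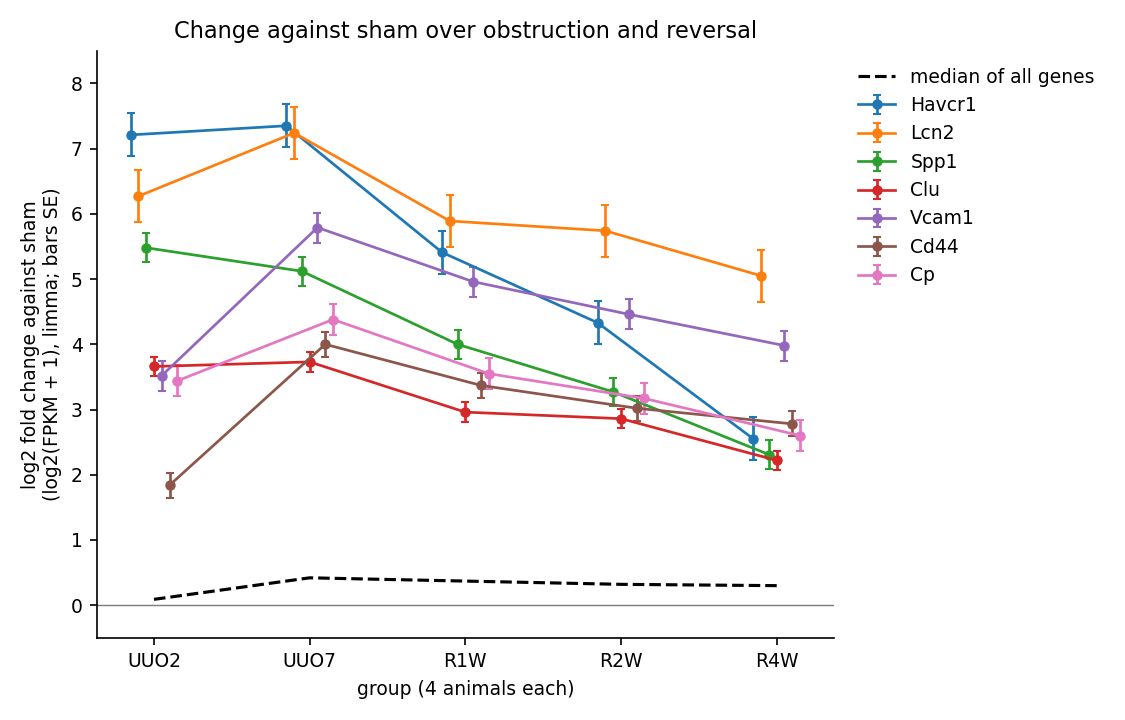
Log2 fold change (± SE) of each gene against sham in the 5 other groups, from the limma fit on log2(FPKM + 1), with the median of all genes as a dashed line. Havcr1 falls from 7.35 at 7 days of ligation to 2.55 at R4W, while Lcn2 goes from 7.24 to 5.05.

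Between 2 and 7 days Vcam1, Cd44, Lcn2 and Cp rose, 4 of 7 members against 52% of all genes called higher. The same 4 lay wholly higher at 7 days, as did 47.9% of all genes. Both counts are near the share of all genes. The log2 fold change was 2.27 ± 0.23 for Vcam1 (adjusted p = 4.98e-08), 2.15 ± 0.19 for Cd44 (adjusted p = 6.35e-09), 0.97 ± 0.4 for Lcn2 (adjusted p = 0.0397) and 0.93 ± 0.24 for Cp (adjusted p = 0.00165). Havcr1 (0.14 ± 0.33, adjusted p = 0.731), Clu (0.07 ± 0.15, adjusted p = 0.701) and Spp1 (-0.37 ± 0.22, adjusted p = 0.149) were not called. As a share of the 7-day rise over sham, the 2-day level was 132% ± 28.2 for Spp1, 97.5% ± 37.8 for Havcr1 and 94.7% ± 2.43 for Clu (SD, n = 4). It was 50.5% ± 7.74 for Lcn2 and 50.4% ± 8.81 for Cp, and 20.1% ± 7.97 for Vcam1 and 17.6% ± 4.84 for Cd44.

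How the libraries were scaled bore on these calls. The median of all genes was 0.28 higher at 7 days, and -0.02 after the median-ratio rescaling. On the rescaled values Havcr1 was at -0.22 and Clu at -0.28, neither called, Spp1 was called lower (-0.72, adjusted p = 0.00438) and Lcn2 was no longer called (0.62, adjusted p = 0.164). In the authors' deposited table the log2 fold change of Spp1 was -0.75 (adjusted p = 7.34e-06), that of Clu -0.3 (adjusted p = 9.59e-05) and that of Havcr1 -0.32 (adjusted p = 0.331). The authors' deposited table gave 1.87 for Vcam1, 2.08 for Cd44, 0.63 for Lcn2 and 0.56 for Cp. Leaving out UUO2 animal 1, 2 or 3, or UUO7 animal 1, 3 or 4, ended the Lcn2 call (adjusted p from 0.0549 to 0.0979), and so did a replicate block (adjusted p = 0.0556) and a pseudocount of 0.1 (adjusted p = 0.0566). Without UUO2 animal 2 Spp1 was called lower (-0.52, adjusted p = 0.0493) and Havcr1 was at -0.19.

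One week after reimplantation all 7 genes were lower than at 7 days of ligation, against 8.04% of all genes called lower, and none overlapped UUO7, against 12.6% that lay wholly lower. The log2 fold change was -1.94 ± 0.33 for Havcr1 (adjusted p = 0.0012), -1.12 ± 0.22 for Spp1 (adjusted p = 0.00327) and -0.77 ± 0.15 for Clu (adjusted p = 0.00313). It was -1.35 ± 0.4 for Lcn2 (adjusted p = 0.0297), -0.83 ± 0.23 for Vcam1 (adjusted p = 0.0214), -0.82 ± 0.24 for Cp (adjusted p = 0.0241) and -0.62 ± 0.19 for Cd44 (adjusted p = 0.0291). Havcr1, Spp1 and Clu kept their calls without any one of the 8 animals. The Cd44 call ended without UUO7 animal 1, 2, 3 or 4 or R1W animal 1 or 4 (adjusted p from 0.0509 to 0.0955), and with a pseudocount of 0.1 (0.0685). That of Lcn2 ended without UUO7 animal 1, 3 or 4 or R1W animal 1 or 4 (0.0564 to 0.0839), that of Cp without the same animals (0.0534 to 0.0743), and that of Vcam1 without UUO7 animal 3 or 4 or R1W animal 1 or 4 (0.0515 to 0.0666). With 1 of these animals left out, as few as 3 of the 7 genes were called lower. Summed macrophage markers were 976 to 1388 FPKM in R1W against 949 to 1141 in UUO7, with overlap. Fibroblast and pericyte sums were lower without overlap (328 to 367 against 415 to 491). Proximal tubule sums were higher without overlap (1072 to 1776 against 754 to 926). So were distal nephron sums (2170 to 2821 against 1336 to 1703) and T and B cell sums. The sums of the other lists overlapped between R1W and UUO7. The part of these cell types in the result was not tested.

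At 2 weeks all 7 genes were lower than at 7 days of ligation, against 21.5% of all genes (without overlap, against 20.4%), with log2 fold changes from -3.02 ± 0.33 for Havcr1 (adjusted p = 6.43e-06) and -1.85 ± 0.22 for Spp1 (adjusted p = 2.01e-05) to -0.87 ± 0.15 for Clu (adjusted p = 0.000473). At 4 weeks all 7 were lower, against 30.8% of all genes, and without overlap, against 31.3%. Havcr1 was then at -4.8 ± 0.33 (adjusted p = 5.89e-09), Spp1 at -2.81 ± 0.22 (adjusted p = 3.69e-08) and Lcn2 at -2.19 ± 0.4 (adjusted p = 0.000209). Vcam1 was at -1.8 ± 0.23, Cp at -1.78 ± 0.24, Clu at -1.52 ± 0.15 and Cd44 at -1.22 ± 0.19, with adjusted p from 7.6e-07 to 4.17e-05. The median of all genes was -0.06 at 2 weeks and -0.08 at 4 weeks. Leaving out any single animal of the 2 groups compared changed none of these 14 calls. Summed proximal tubule markers were 1677 to 2375 FPKM in R4W against 754 to 926 in UUO7. Their part in the result was not tested.

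By 4 weeks each of the 7 genes had on average lost more of its 7-day rise than it kept. The share of the 7-day rise over sham that was left, computed per animal on FPKM, was lowest for Havcr1, at 26.1% ± 5.79 after 1 week, 12.8% ± 6.84 after 2 weeks and 3.25% ± 1.5 after 4 weeks (SD, n = 4). Spp1 kept 45.3% ± 12, 26.4% ± 9.19 and 11.8% ± 2.51. Clu kept 55.4% ± 8.44, 53.1% ± 20.2 and 29.6% ± 1.31. For Lcn2 the shares were 39.3% ± 10.3, 39.7% ± 22.9 and 21.1% ± 2.44. Cp still held 27% ± 10.3 at 4 weeks, Vcam1 28.7% ± 10.6 and Cd44, at the top, 40.7% ± 13.2. The 4 R4W animals of Cd44 and of Havcr1 did not overlap on this measure. Differences between genes in the share left were not tested.

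**Figure D3:**
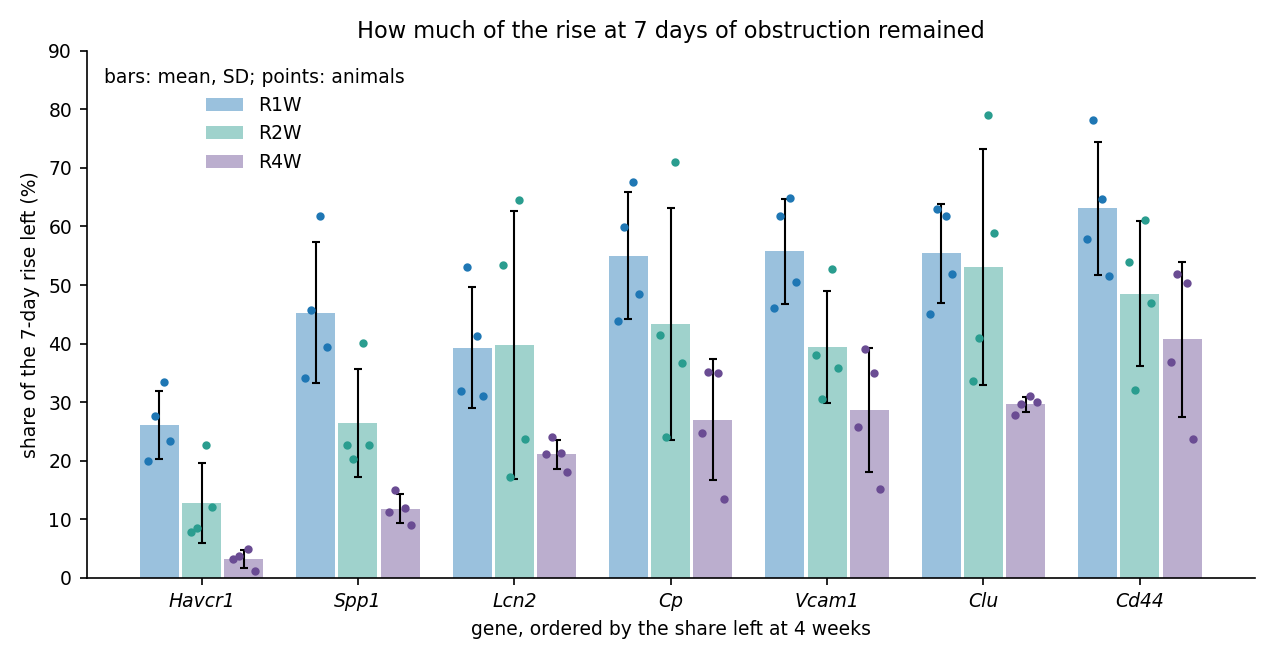
Share of the 7-day rise over sham that was left in R1W, R2W and R4W for each gene, in percent; bars are means, error bars SD and points the 4 animals. The R4W bars run from 3.25% for Havcr1 to 40.7% for Cd44.

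Among the reversal groups the steps were smaller. From R1W to R2W limma called none of the 7 genes, against 0.00676% of all genes called in either direction, while 2351 genes had an unadjusted p under 0.05, Havcr1 and Spp1 (both with a limma adjusted p = 0.166) and Vcam1 (adjusted p = 0.302) among them, with lower means in R2W. No alternative fit called a member there. From R2W to R4W only Havcr1 was called lower (-1.78 ± 0.33, adjusted p = 0.0459), 1 of 7 members against 0.0203% of all genes. Havcr1, Spp1 and Clu had all 4 R4W animals below all 4 R2W animals, as did 2.99% of all genes. The Havcr1 call ended without R2W animal 3 (adjusted p = 0.188) or 4 (0.144) and without R4W animal 1 (0.157), 2 (0.0789), 3 (0.0687) or 4 (0.112), and with a replicate block (0.0579). It also ended with a pseudocount of 0.1 (0.0765) or 10 (0.0964), in a fit on these 2 groups only (0.558) and in a fit without the UUO2 libraries (0.0728). Without R2W animal 1 Clu was called too (-0.81, adjusted p = 0.0254). With R4W animal 2 placed in R2W, as its treatment label has it, no member was called. The authors' deposited table gave -1.85 for Havcr1 (adjusted p = 0.00043) and -0.97 for Spp1 (adjusted p = 0.000421) over this step.

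Over the longer step from R1W to R4W, 6 of the 7 genes fell, against 14.1% of all genes called lower, and 6 lay wholly lower, against 15.9%. Havcr1 was at -2.86 ± 0.33 (adjusted p = 7.93e-05), Spp1 at -1.69 ± 0.22 (adjusted p = 0.000376), Clu at -0.74 ± 0.15 (adjusted p = 0.0053) and Vcam1 at -0.98 ± 0.23 (adjusted p = 0.00915). Cp was at -0.95 ± 0.24 (adjusted p = 0.0114) and Cd44 at -0.59 ± 0.19 (adjusted p = 0.0329), while Lcn2, at -0.84 ± 0.4, was not called (adjusted p = 0.14) although its animals did not overlap. For Lcn2 the authors' deposited table gave -0.8 over this step (adjusted p = 6.69e-06). Cd44 was the gene that overlapped. The Cd44 call ended without R1W animal 2 or 3 or R4W animal 1 or 4 (adjusted p from 0.0746 to 0.127) and with a pseudocount of 0.1 (0.0626), and the Cp call without R1W animal 3 (adjusted p = 0.0564). A fit on these 2 groups alone called 3 genes and ended the calls of Vcam1 (adjusted p = 0.0653), Cp (0.0653) and Cd44 (0.113).

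At 4 weeks none of the 7 genes was back at its sham range. A single sham group served all times, and only the reversal animals had a reimplantation. Age at sampling and the second operation cannot be told apart from what remained of the injury in these comparisons. All 7, Cd44 again with that limit, were higher in R4W than in sham, against 54.8% of all genes, as they were in R1W (59.4%) and R2W (56.1%). No sham animal reached the level of any reversal animal for any of the 7, while 53.4% of all genes lay wholly above sham at 1 week, 50.6% at 2 weeks and 52.9% at 4 weeks. The log2 fold change in R4W was 5.05 ± 0.4 for Lcn2 (adjusted p = 3.86e-09) and 3.98 ± 0.23 for Vcam1 (adjusted p = 3.3e-10). It was 2.78 ± 0.19 for Cd44, 2.6 ± 0.24 for Cp, 2.55 ± 0.33 for Havcr1, 2.31 ± 0.22 for Spp1 and 2.22 ± 0.15 for Clu, with adjusted p from 7.16e-10 to 1.44e-06. The members' median was 2.6 and that of all genes 0.3. The order of the genes depends on the pseudocount here too. As ratios of means, Cd44 stood 30.7-fold and Vcam1 25.6-fold above sham, and Spp1 4.84-fold. For Lcn2 the ratio rests on sham animal 2: the R4W mean was 192.6 against 6.43 FPKM in all 4 sham animals and 3.19 FPKM in the other 3, which gives 60.4-fold without it, beside 38.3-fold for Cd44 and 27-fold for Vcam1 on the same base. In the authors' deposited table the log2 fold change was 4.57 for Cd44, 4.56 for Lcn2 and 4.33 for Vcam1. The median ratio of Lcn2 to Havcr1 in FPKM went from 1.72 in UUO7 to 2.75 in R1W, 4.52 in R2W and 11.3 in R4W, and that of Vcam1 to Havcr1 from 0.332 to 2.74. Across all alternatives, stricter thresholds on the main fit included, the 618 values against sham gave no changed call. The Cd44 values among them carry the limit given above.

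Summed macrophage markers in each reversal group overlapped those at 7 days of ligation, but single markers moved in different directions. By group mean Lyz2 went from 367 FPKM in UUO7 to 574, 724 and 597 in R1W, R2W and R4W. C1qa went from 319 to 289, 283 and 204 FPKM. Against UUO7 limma called Lyz2 higher in R2W (adjusted p = 0.0349) and no other macrophage marker in any reversal group. The sums were 823 to 2021 FPKM in R2W and 698 to 1377 in R4W, against 49.2 to 82.8 in sham, with 7 of 7 markers in the table and none at 0. Neutrophil sums (3 of 7 with a row) were 5.69 to 15.8 FPKM in R4W, T and B cell sums (4 of 7 with a row) 11.2 to 25.4 against 0.95 to 1.16 in sham, endothelial sums 121 to 148, fibroblast and pericyte sums 197 to 323, and urothelial sums 42.6 to 141 against 1.45 to 34.2 in sham. Their part in the levels of the members that remained was not tested.

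**Figure D4:**
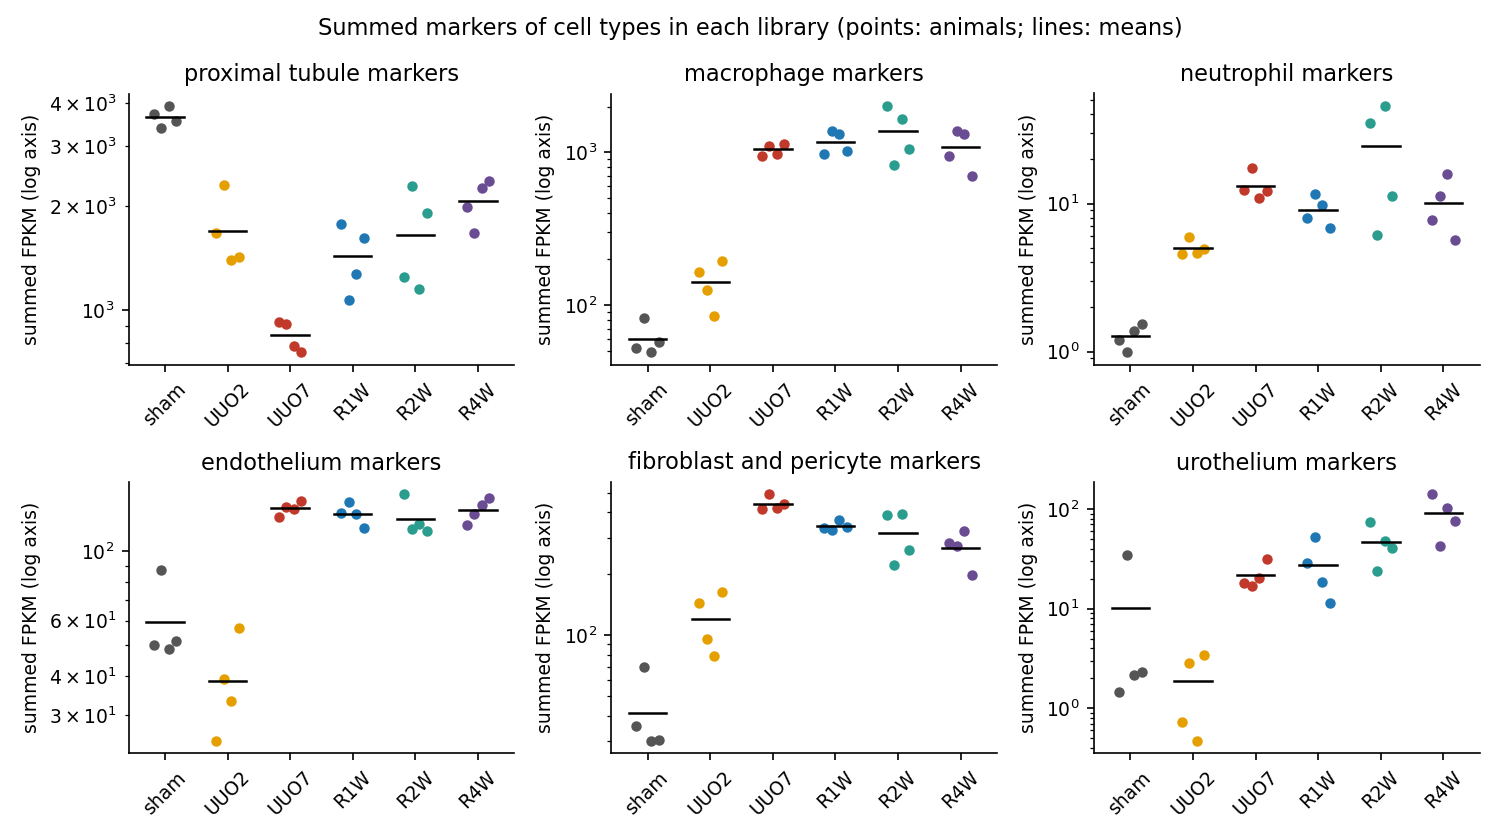
Summed FPKM of 6 lists of cell type markers in each library on a log axis, by group. Proximal tubule sums are lowest at UUO7 (754 to 926) and macrophage sums are 698 to 2021 in the reversal groups against 49.2 to 82.8 in sham.

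In some groups 1 animal was the extreme for most of the genes. R2W animal 3 was the highest of its group for every gene, and R4W animal 4 the lowest for 6 of 7, Clu being the exception. UUO2 animal 4 was the highest for 6 of 7, with Havcr1 the exception. R1W animal 1 was the lowest for 5 of 7 genes, but the order was not shared everywhere: UUO7 animal 4 was the highest for Lcn2, Clu, Cd44 and Cp and the lowest for Havcr1 and Spp1, and in R1W the highest values were split between animals 2 and 3. In R4W the summed macrophage markers were 948.1, 1377, 1316 and 698.2 FPKM for animals 1 to 4, the same order as 5 of the 7 genes, Lcn2, Spp1, Vcam1, Cd44 and Cp. The T and B cell sums (16.6, 25.37, 23.87 and 11.25 FPKM) ran in that order too, and the sums of the other lists did not. In R2W the macrophage sums were 2021, 823.3, 1653 and 1056 FPKM, so animal 3 was not the highest there. It had the highest neutrophil sum (45.67 FPKM against 6.11 to 34.79), T and B cell sum (19.95 against 11.57 to 18.14) and fibroblast and pericyte sum (392.5 against 221.3 to 388.4). Endothelial, urothelial and adipose sums, like the macrophage sums, were highest in R2W animal 1. These orders were noticed in the values and were not tested.

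**Figure D5:**
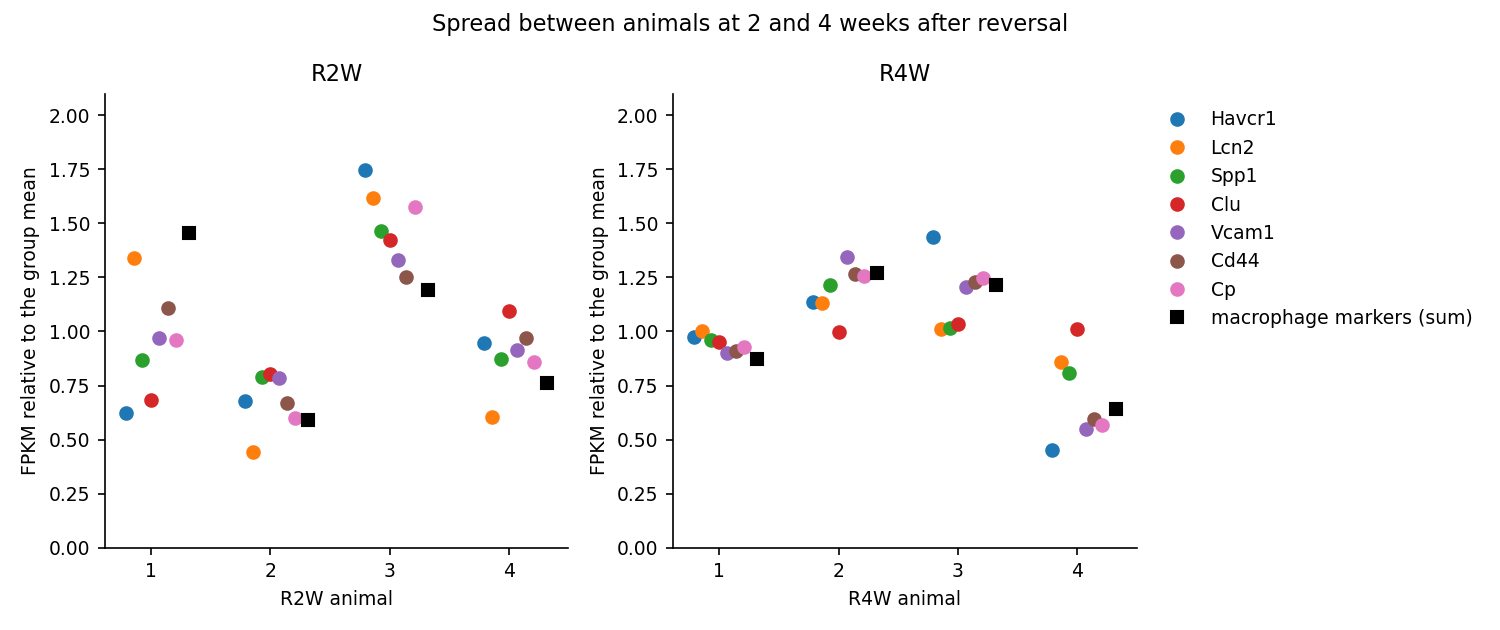
FPKM of each gene in the R2W and R4W animals relative to the group mean, with the summed macrophage markers as black squares; each point is 1 animal. R2W animal 3 is the highest for all 7 genes and R4W animal 4 the lowest for 6 of 7.

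Over the 24 libraries, which fall into the 6 groups and share their differences, the other gene with the profile most like a member was found by Pearson r on log2(FPKM + 1). Havcr1 and Spp1 were each most like the other (r = 0.988). Clu was most like the complement gene C3 (0.982) and Serpina10 (0.98). Lcn2 was most like Plp2 (0.985) and the actin-capping gene Capg (0.982), and Cp like Sept11 (0.987), whose symbol stands as a date in the table, and Plp2 (0.982). Vcam1 had Dpysl3 (0.99) and Tmsb10 (0.989), and Cd44 had Rcn1 (0.991) and Sparc (0.988), a matrix protein gene. Between members, r ran from 0.686 for Spp1 and Cd44 to 0.988 for Havcr1 and Spp1, with 0.983 for Vcam1 and Cd44.

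Of 14 other genes linked to the failed-repair state, all with a row, 11 were higher at 2 days (12 after the median-ratio rescaling), beside 32.3% of all genes. At 7 days 13 were higher and 1 lower (12 and 1 after rescaling), beside 60.1% of all genes called higher, with a list median of 2.34 on the log2 scale beside 0.42 for all genes. The shares of all genes, here and for the lists below, are from the values before rescaling and are no baseline for the rescaled counts. After rescaling the median of all genes at 7 days was 0.01, with 10789 genes called in either direction. No gene of the table has a mean below 1.0 FPKM over the 24 libraries, so a gene near 0 in sham has a row through the ligated or reversed groups and had to be higher there; the counts against sham are no support for a rise of the list. Krt20, a keratin and such a gene, went from a mean of 0.17 FPKM in sham to 35.08 at 7 days (log2 fold change 4.96, adjusted p = 7.1e-13), and Ccl2, a monocyte chemokine also under that level in sham, from 0.745 to 39.69 (4.52, adjusted p = 3.94e-11). The integrin gene Itgb8 was the one that was lower (-0.52, adjusted p = 8.22e-05). At 1 week of reversal 4 of the 14 were lower than at 7 days of ligation, beside 8.04% of all genes. At 4 weeks 8 were lower (7 lower and 1 higher after rescaling), beside 30.8% of all genes, led by Krt20 (-2.74, adjusted p = 2.94e-08). Against sham, 12 were still higher at 4 weeks, beside 54.8% of all genes, among them Ccl2 (3.37) and Vim (2.99), and Itgb6 (-0.46) and Itgb8 (-0.45) were lower.

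Of the receptors and partners of the members, 13 of 20 had a row. The limit on counts against sham applies to these genes too. At 7 days 11 were higher than sham and 2 lower, beside 60.1% of all genes called higher, or 10 and 2 after the rescaling. Trem2, a myeloid lipid receptor, went from 0.37 to 17.19 FPKM (3.74, adjusted p = 9.32e-10), and Itgav, a subunit of osteopontin-binding integrins, from 36.31 to 134.0 (1.85, adjusted p = 1.14e-09). Lrp2 (megalin), through which proximal tubule cells take up filtered proteins such as lipocalin 2, went from 112.5 to 21.21 FPKM (-2.36, adjusted p = 3.04e-09). It is also 1 of the 7 proximal tubule markers. At 4 weeks Lrp2 was higher than at 7 days of ligation (1.29, adjusted p = 6.58e-05) and Itgav lower (-1.19, adjusted p = 9.19e-06).

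Iron-handling genes, beside Lcn2 and Cp, changed in both directions. Of 10 with a row, 7 were higher and 1 lower at 2 days, and 5 higher and 3 lower at 7 days, or 4 and 5 after the rescaling, which turned the sign of 3 of them. Over all genes 32.3% were called higher at 2 days and 60.1% at 7 days before the rescaling, so the 7-day count before it is not above that share. Trf, the gene of transferrin, was at 119.3 FPKM at 7 days against 15.16 in sham (3.06), and the transferrin receptor Tfrc at 6.75 against 12.06 (-0.75). Hmox1, which degrades haem, was at 128.6 FPKM at 2 days against 21.34 (2.4). Inducers and transcription factors of the acute-phase and NF-kappaB pathways had a row for 16 of 17 listed. Of these, 13 were higher than sham at 2 days, 15 at 7 days and 16 in R4W, beside 32.3%, 60.1% and 54.8% of all genes. After the rescaling 12, 15 and 14 were higher. The 16 include Tnf (0.0625 FPKM in sham) and Il6ra (0.405), which have a row only through the injured groups, so these counts are no support for a rise of the list. Socs3, a STAT3 target and inhibitor, was at 45.1 FPKM at 7 days against 1.02 (4.56), and the oncostatin M receptor Osmr at 18.31 against 1.172 (3.17). At 4 weeks 11 of the 16 were lower than at 7 days of ligation, 9 after the rescaling, beside 30.8% of all genes, among them Cebpb (23.66 against 71.81 FPKM, -1.63).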

How the data were processed

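Bulk polyA-selected RNA of 24 mouse kidneys, 4 per group, was sequenced as paired reads of 100 bp. Values were made by the authors: per the submitters' processing notes, FastQC, RSEM, Bowtie2, DESeq2 and mm10 were used, with no versions given. The deposited table gives 1 value per gene and library, read here as FPKM from its decimals and sums, and the authors' log2 fold changes and adjusted p-values for 15 comparisons. It holds no gene with a mean below 1.0 FPKM. The direction of the authors' deposited log2 values was checked against ratios of group means.

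Values were analysed as log2(FPKM + 1) with limma 3.58.1 (R 4.3.3; linear model over the 6 groups, all 24 libraries in 1 fit, moderated with a mean-variance trend). P-values were adjusted by Benjamini-Hochberg over all 14785 genes, and a gene was called at an adjusted p under 0.05. On values simulated for UUO7 against sham over 14785 genes, 95 of 100 genes changed by 1 on the log2 scale and 98 of 100 changed by 2 were called, and 13 unchanged genes. The changed genes were drawn from those with a mean log2(FPKM + 1) above 2, and the noise was normal and independent. In the real comparison most genes were called, so these rates need not carry over to it. The genes named were the 7 members, the 2 other genes most like each (mean of at least 10 FPKM), and up to 2 per direction and list by absolute log2 fold change; 1 gene so named is not reported here. The members and lists were chosen with earlier results of these data known. Labels do not tie replicate numbers across groups to shared animals: same-number correlations of deviations ran from -0.474 to 0.451, and in no comparison were all 4 over 0.1. Libraries are labelled as separate samples, and no 2 held identical values. Alternatives were pseudocounts of 0.1 and 10, median-ratio rescaling, a mean of at least 50 FPKM, fits on 2 groups or without UUO2, a replicate block, R4W animal 2 in R2W, stricter thresholds and leaving out each animal. The share at day 2, the fragment-step search, the promoter windows, and the comparison of late animals with cell type marker sums were added after the data were seen. Python 3.11.15 was used for the rest.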

Additional observations from a re-analysis of the deposited data

Results flagged for a closer look

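A gap test within groups of 4 animals (Dixon, 95% critical value) marked 4 of 42 checks of the 7 genes, where chance gives about 2.1. Lcn2 was 552.95 FPKM in UUO2 animal 4, against 407.54 to 426.39 in the other 3. Cd44 in the same animal was 4.92 FPKM, against 3.01 to 3.28. Spp1 was 718.52 FPKM in sham animal 2, against 385.17 to 428.13, and 6757.88 FPKM in R2W animal 3, against 3654.14 to 4036.48. No gene moved in opposite directions against sham in different groups.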

How the results depend on the processing

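Every comparison of the 7 genes with sham kept its call under all alternatives run, and so did those of R2W and R4W with UUO7 except Clu (-0.87) and Cd44 (-0.98) in R2W when a minimum log2 change of 1 was set. After median-ratio rescaling, 7 days against 2 days of ligation gave -0.22 for Havcr1 and -0.28 for Clu on the log2 scale, and leaving out 1 animal gave -0.19 (without UUO2 animal 2) to 0.33 for Havcr1. From R1W to R2W, Lcn2 ran from -0.44 to 0.18 over the animals left out, above 0 without R1W animal 2 (0.01), R2W animal 2 (0.18) or R2W animal 4 (0.03), and Clu from -0.29 to 0.06, the latter without R2W animal 1. When a log2 change of 1 or more in either direction was required, 2 genes were called between UUO7 and UUO2, 3 between R1W and UUO7 and 2 between R4W and R1W, and 10 pairs of neighbouring groups in the order of means were, against 16 of 35 without that minimum. At an adjusted p under 0.01, 3 were called between R1W and UUO7. Between R4W and R2W 0 were called with a pseudocount of 0.1 or 10, on 2 groups only, without UUO2 libraries, with R4W animal 2 in R2W, at an adjusted p under 0.01 and with a replicate block, and 3 between R4W and R1W on 2 groups only. Leaving out 1 animal gave 3 to 7 calls for R1W against UUO7, 3 to 4 for UUO7 against UUO2, 0 to 2 for R4W against R2W, 4 to 6 for R4W against R1W, and 11 to 17 neighbouring pairs called different. The replicate block changed 2 calls: Lcn2 from UUO2 to UUO7 (adjusted p = 0.0556) and Havcr1 from R2W to R4W (adjusted p = 0.0579). Cd44 has a mean under 50 FPKM and got no value under that filter. The cause of these changes was not tested. There were 4 animals a group, the depth of 10 libraries, the 4 of UUO2 included, was not found.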
